A study of Mus musculus with 8 samples.

Results

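The FLRT and IgLON families are 2 small groups of cell-surface adhesion molecules, and 7 of their genes were examined: Flrt1, Flrt2 and Flrt3, and the IgLON genes Ntm, Opcml, Lsamp and Negr1. They were taken by symbol from the 55487 genes of a count table, and all 7 were found there. The list was chosen by family membership with the log2 fold changes between the lines already in view, so values of that comparison are given as a description of these genes. The fifth IgLON gene, Iglon5, was outside the list and is treated as a relative.

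FLRT proteins span the membrane once and carry leucine-rich repeats and a fibronectin type III domain outside the cell. They hold cells together by binding one another, and they bind UNC5 netrin receptors and latrophilins on other cells, which can repel or attract migrating cells. In the mouse embryo Flrt2 is known for keeping the epicardium intact, and Flrt3 for headfold fusion, ventral closure and endoderm. IgLON proteins are attached to the outer membrane by a lipid anchor, are built of immunoglobulin domains, and are best known from neurite growth and synapses.

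The RNA came from mouse E14-Tg2a embryonic stem cells taken on day 6 of differentiation without serum towards precardiac mesoderm. Parental cells (genotype WT, 4 libraries) were compared with line 4D, derived from them and labelled Tbx1-/- (4 libraries), both under the same in vitro differentiation with no other agent. Tbx1 encodes a T-box transcription factor needed for the pharynx and the cardiac outflow tract, and DiGeorge syndrome in humans usually involves loss of a copy of it. All mutant libraries came from that 1 line, so that an effect of Tbx1 loss and a property of the line cannot be told apart, and the design text calls the 4 cultures of each line biological replicates. QuantSeq reads the 3′ end of polyadenylated RNA, so a level does not grow with transcript length, and levels are given as CPM (counts divided by the scaled total of their library).

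Libraries held between 3803561 and 6293907 counts. Tbx1 had 39, 65, 38 and 22 counts in parental libraries 1 to 4 and 3, 0, 1 and 0 in mutant libraries 1 to 4. Mutant library 4 stood apart, with correlations of 0.857 to 0.881 to the other libraries, which correlated at 0.920 to 0.944 among themselves. It had counts for 14850 genes, against 18213 to 19134 in the others. The log2 fold changes of Flrt2, Flrt3, Ntm and Lsamp, and the genes most alike in pattern, are also given without it. Of 13280 genes with enough counts to test, 188 (1.42%) had an adjusted p under 0.05, 99 of them higher in the mutant line. With scaling by library size alone 157 were called, 100 of them higher. Cardiomyocyte markers were present, with 15 of 16 above the low-count filter, and so were mesenchyme markers, with 15 of 17.

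Flrt2, Flrt3 and Ntm were higher in the mutant line, by 2.13- to 3.55-fold, and Negr1 lay in the same direction with libraries that overlapped. Flrt1 and Lsamp were low and overlapped between the lines, and Opcml had 12 counts or fewer in every library but 1. Opcml did not pass the low-count filter. Of the 6 members tested, 3 had an adjusted p under 0.05 and all 3 were higher, against a background of 0.745% of tested genes called higher. The same 3 had mutant libraries all above all parental libraries, where 3.49% of tested genes did. The median log2 fold change of the 6 tested members was 1.19, and that of all tested genes 0.001. Because the genes were listed with this comparison known, nothing is read from these counts, and the adjusted p-values below describe the fit over all 13280 genes.

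**Figure D1:**
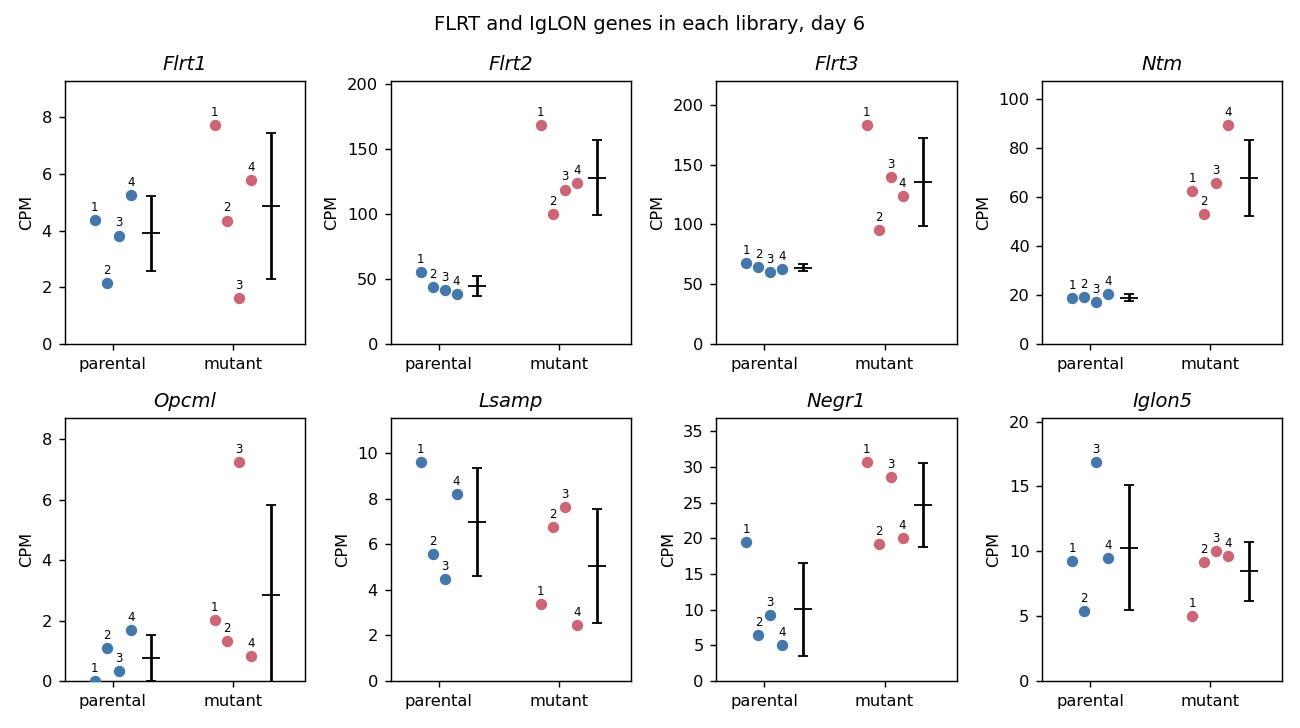
Level of each FLRT and IgLON gene, and of Iglon5, in CPM on a linear axis from 0, with 1 point per library labelled by its replicate number and a bar for the mean and SD of each line (n = 4, lower bar cut at 0). Flrt2, Flrt3 and Ntm have all 4 mutant points above all parental points, and the other 5 genes overlap.

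Flrt2 (ENSMUSG00000047414.6, chromosome 12, 95692226 to 95785215, plus strand, GRCm38) had 55.6, 43.8, 41.3 and 38.6 CPM in the parental cultures, in replicate order. The mutant cultures had 168.7, 100.5, 119 and 123.7 CPM. Every mutant library was high, and the lines did not overlap. Mean levels were 44.8 ± 7.52 CPM for the parental and 128 ± 28.9 CPM for the mutant line (SD, n = 4). This is a 2.86-fold rise, or 1.51 ± 0.17 (SE) as a log2 fold change, at an edgeR adjusted p of 5.96e-05. Without mutant library 4 it was 1.53.

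Flrt3 (ENSMUSG00000051379.12, chromosome 2, 140650914 to 140671469, minus strand) was the most abundant of the 7 genes in every parental library, at 67.6, 64.2, 60.3 and 63.0 CPM. Mutant libraries 1 to 4 had 183.1, 95.7, 139.5 and 124 CPM. Parental libraries were close together, with an SD of 4.76% of the mean, while the mutant libraries spread over 26.9% of theirs. Library 1 was highest and library 2 lowest in the mutant line, as for Flrt2. Flrt3 rose 2.13-fold, a log2 fold change of 1.09 ± 0.16 (SE), at an edgeR adjusted p of 0.00146. It was 1.13 without mutant library 4.

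Flrt1 (ENSMUSG00000047787.8, chromosome 19, 7092001 to 7105729, minus strand) was low, with 24, 12, 24 and 25 counts in parental libraries 1 to 4. Mutant libraries 1 to 4 had 46, 20, 9 and 21 counts. The lines overlapped at 3.90 ± 1.31 and 4.87 ± 2.56 CPM (SD, n = 4), and both the highest and the lowest library were mutant. Its log2 fold change of 0.32 ± 0.61 (SE, edgeR adjusted p = 0.894) became -0.01 without mutant library 1. The estimate was thus smaller than its SE.

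Within the FLRT family the balance between Flrt2 and Flrt3 differed between the lines. For each Flrt3 count there were 0.823, 0.682, 0.685 and 0.612 Flrt2 counts in parental libraries 1 to 4. For the mutant replicates the ratio was 0.921, 1.05, 0.853 and 0.998, without overlap with the parental values. Flrt2 held 39.7% ± 3.08 of FLRT counts in parental and 47.9% ± 1.94 in mutant libraries (SD, n = 4). These shares do not depend on how the libraries are scaled. The 95% exact Clopper-Pearson intervals of single libraries, which cover counting error only, overlapped between the lines: that of parental library 1 (39.9% to 47.3%) reached into those of all 4 mutant libraries, and that of parental library 2 (35.8% to 43.7%) into that of mutant library 3 (43.1% to 48.4%). Flrt1 held 0.628% to 4.93% of FLRT counts over the 8 libraries. Summed FLRT levels were 105 to 128 CPM in parental and 200 to 359 CPM in mutant libraries.

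Because Flrt2 and Flrt3 rose together, the 250 bases before their RefSeq start sites are shown, with CpG dinucleotides in capitals (GRCm38.p6, 5′ to 3′ on the strand of the gene). The Flrt2 window is chr12:95691976-95692225 on the plus strand and the Flrt3 window is chr2:140671477-140671726 on the minus strand.
Flrt2: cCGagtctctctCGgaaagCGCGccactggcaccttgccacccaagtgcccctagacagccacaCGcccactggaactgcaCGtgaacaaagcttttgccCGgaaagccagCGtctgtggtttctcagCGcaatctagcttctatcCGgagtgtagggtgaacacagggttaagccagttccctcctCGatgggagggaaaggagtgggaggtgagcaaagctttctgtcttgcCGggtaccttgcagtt
Flrt3: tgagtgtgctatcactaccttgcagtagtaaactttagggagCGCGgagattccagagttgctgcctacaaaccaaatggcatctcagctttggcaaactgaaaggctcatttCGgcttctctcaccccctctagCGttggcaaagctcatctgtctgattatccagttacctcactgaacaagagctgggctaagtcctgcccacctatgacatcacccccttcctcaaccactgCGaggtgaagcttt
The Flrt2 window held 12 CpG dinucleotides and 57.2% G or C, and the Flrt3 window 5 and 50.0%. Over all 32851 windows of the RefSeq table the medians were 6 and 52.4%, so that the Flrt2 window lay above both medians and the Flrt3 window below both. The core T-box motif GGTGTGA was searched on both strands and occurred in neither window, as in all but 3.33% of the windows of the table. The TATA motif TATAAA, searched in the same way, was also in neither, and 12.4% of all windows held it. A window without these letters says nothing of binding elsewhere.

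Ntm (neurotrimin, ENSMUSG00000059974.10, chromosome 9, 28994750 to 29963141, minus strand) had the largest fold change of the members tested. Parental libraries 1 to 4 had 18.9, 19.4, 17.4 and 20.6 CPM. Mutant libraries 1 to 4 had 62.5, 53.4, 65.8 and 89.6 CPM. The lowest mutant library lay more than 2-fold above the highest parental one, and the parental spread was small, with an SD of 7.05% of the mean. Means were 19.1 ± 1.34 and 67.8 ± 15.5 CPM (SD, n = 4). Ntm rose 3.55-fold, a log2 fold change of 1.83 ± 0.19 (SE), at an edgeR adjusted p of 2.74e-05. Mutant library 4 was the highest for Ntm, unlike for Flrt2 and Flrt3, and without it the log2 fold change was 1.67, still past the threshold at an edgeR adjusted p of 3.15e-05.

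Negr1 (neuronal growth regulator 1, ENSMUSG00000040037.13, chromosome 3, 156561794 to 157316445, plus strand) had 107, 36, 58 and 24 counts, or 19.5, 6.46, 9.26 and 5.06 CPM, in parental libraries 1 to 4. Mutant libraries 1 to 4 had 183, 88, 157 and 73 counts, or 30.7, 19.2, 28.5 and 20.1 CPM. Parental library 1 stood above its group and reached into the mutant range, passing mutant library 2. The log2 fold change of 1.29 ± 0.36 (SE) did not pass the threshold, with an edgeR adjusted p of 0.0900. Without parental library 1 the log2 fold change was 1.82 and passed, with an edgeR adjusted p of 0.00987. DESeq2 and limma-voom in place of edgeR also called it, at adjusted p-values of 0.0287 and 0.0304, and over its 16 alternatives the adjusted p ran from 0.00457 to 0.305.

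Lsamp (limbic system-associated membrane protein, ENSMUSG00000061080.11, chromosome 16, 39984361 to 42181679, plus strand) was the tested member with a negative estimate. Its counts were 53, 31, 28 and 39 in parental and 20, 31, 42 and 9 in mutant libraries 1 to 4. Levels of 6.97 ± 2.37 and 5.05 ± 2.52 CPM (SD, n = 4) overlapped, and the log2 fold change of -0.45 ± 0.51 (SE) had an edgeR adjusted p of 0.792. Without mutant library 4 the log2 fold change was -0.24. Lsamp lies on the chromosome of Tbx1, 21394 kb from it.

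Opcml (opioid-binding cell adhesion molecule, ENSMUSG00000062257.13, chromosome 9, 27790775 to 28925410, plus strand) had 0, 6, 2 and 8 counts in parental libraries 1 to 4. Mutant libraries 1 to 4 had 12, 6, 40 and 3 counts. Mutant library 3 held 40 of the 61 mutant counts, while 3 libraries were at or under a floor of 3 counts, so no fold change is given. In parental library 1, with 0 counts, that floor is 0.546 CPM. Ntm and Opcml are neighbours, on opposite strands with 69.3 kb between them. Ntm had far more counts than Opcml in each library, the closest being mutant library 3 with 362 against 40.

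Among the 4 listed IgLON genes, the share of Lsamp was lower in the mutant line. Lsamp held 20.1%, 17.1%, 14.2% and 23.1% of IgLON counts in parental libraries 1 to 4 and 3.41%, 8.38%, 6.99% and 2.19% in mutant libraries 1 to 4, without overlap. Ntm held 39.4%, 59.7%, 55.3% and 58.0% in parental and 63.4%, 66.2%, 60.2% and 79.3% in mutant libraries. The Ntm share was thus higher in each mutant library than in each parental one, but the gap between 59.7% and 60.2% was within the counting intervals of those libraries. Negr1 held 26.0% ± 11.5 and 24.7% ± 5.57 (SD, n = 4), shares that overlapped. The Lsamp level itself overlapped between the lines, while the Ntm level did not.

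**Figure D2:**
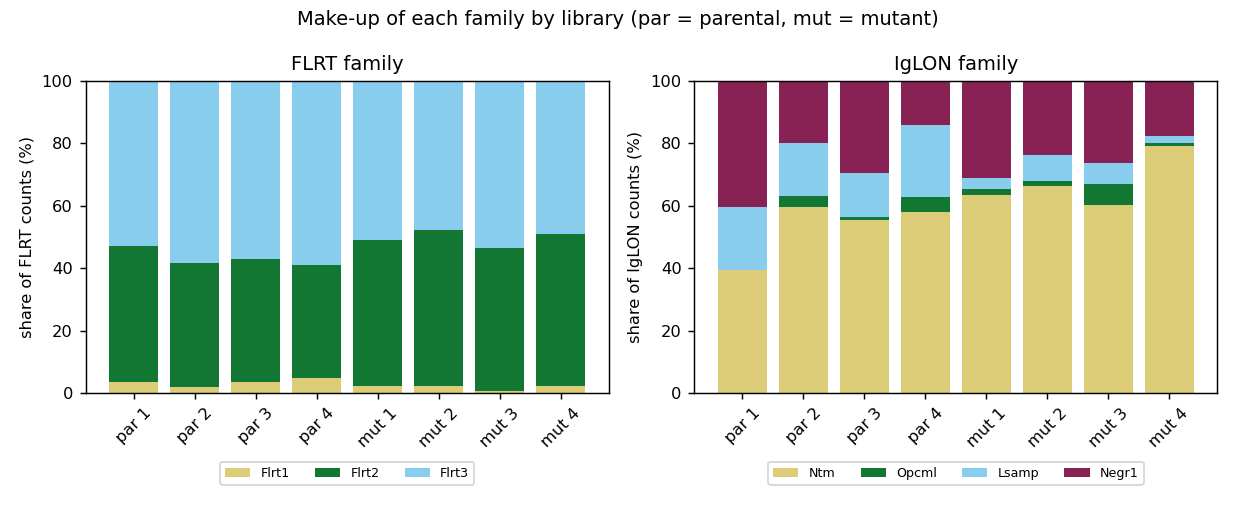
Share of the summed counts of each family held by each gene, in percent, with 1 stacked bar per library. Flrt2 takes 36.1% to 43.6% of FLRT counts in parental and 45.7% to 50.1% in mutant libraries, and Lsamp takes 14.2% to 23.1% and then 2.19% to 8.38% of IgLON counts.

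In the order of their mean levels, the 7 genes kept the same places in both lines: Flrt3, Flrt2, Ntm, Negr1, Lsamp, Flrt1 and Opcml. In parental libraries Flrt3 ranked first and Flrt2 second in each of the 4. In mutant libraries these neighbours did not differ beyond their spread, at 136 ± 36.5 and 128 ± 28.9 CPM (SD, n = 4), and Flrt2 was the higher in mutant library 2. Among parental libraries Ntm overlapped with Negr1, Negr1 with Lsamp, and Lsamp with Flrt1. Among mutant libraries Lsamp overlapped with Flrt1, and Flrt1 with Opcml. Against all tested genes, Ntm moved from percentile 47.3 of mean CPM in parental to percentile 78.9 in mutant libraries, and Flrt2 from 69.3 to 89.8.

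For Ntm the RefSeq table gives 2 start sites, both inside the longer GENCODE M21 gene. Their windows of 250 bases before the start are shown because Ntm had the largest fold change, with CpG dinucleotides in capitals. The first is chr9:29413453-29413702 and the second chr9:29412686-29412935, both on the minus strand (GRCm38.p6).
Ntm first start: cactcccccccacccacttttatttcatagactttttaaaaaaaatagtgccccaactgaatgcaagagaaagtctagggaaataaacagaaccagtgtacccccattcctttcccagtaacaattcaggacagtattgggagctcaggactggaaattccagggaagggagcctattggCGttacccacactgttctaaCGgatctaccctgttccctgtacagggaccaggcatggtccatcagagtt
Ntm second start: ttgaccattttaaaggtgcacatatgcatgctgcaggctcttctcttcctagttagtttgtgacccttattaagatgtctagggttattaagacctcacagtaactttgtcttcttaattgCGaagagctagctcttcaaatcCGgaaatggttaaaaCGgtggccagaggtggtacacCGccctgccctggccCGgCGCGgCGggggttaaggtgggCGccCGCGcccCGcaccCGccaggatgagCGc
The first window held 2 CpG dinucleotides and the second 14, on either side of the median of 6. Counts of 3′ ends cannot tell which start site was used. Windows were found for 6 of the 7 genes, 8 in all, and 0 of the 8 held the T-box core or the TATA motif.

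Gene structure separated the families. In GENCODE M21 the longest coding sequence of each FLRT gene lies in 1 exon, of 2022, 1980 and 1947 bases for Flrt1, Flrt2 and Flrt3. Those of Ntm, Opcml, Lsamp and Negr1 are split over 8, 7, 9 and 7 exons and are 1032, 1035, 1065 and 1044 bases long. The IgLON genes span 755 to 2197 kb and the FLRT genes 13.7 to 93.0 kb. Flrt1 and Flrt3 each lie within a larger gene on the opposite strand, Macrod1 and Macrod2, with no exon of either overlapping an exon of its host.

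Genes around the members were compared in the same fit. Ntm and Opcml, which neighbour each other, were left out. Of 14 other protein-coding genes that overlap a member or are its nearest neighbour, 11 were tested and 0 were called by edgeR, with log2 fold changes of -0.78 to 0.41. By DESeq2 and by limma-voom 0 were called as well, and 0 had an unadjusted p under 0.05. With 1.42% of all tested genes called by edgeR, 0 of 11 lies near the background, so nothing is read from these counts. Macrod2, the host of Flrt3, averaged 4.23 ± 1.83 CPM in the parental and 5.55 ± 2.93 CPM in the mutant line (SD, n = 4), with a log2 fold change of 0.41 ± 0.60 (SE). Macrod1, the host of Flrt1, had a log2 fold change of -0.78 ± 0.73. Beside Ntm, Snx19 had 0.09 ± 0.33, and beside Negr1, Zranb2 had -0.15 ± 0.11.

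The receptors and ligands that FLRT proteins are known to meet were taken as a list of 14 genes, of which 11 were tested. Tenm4, a teneurin that binds latrophilins, was called higher and 0 were called lower, so that 1 of 11 passed against 1.42% of all tested genes. An unadjusted p under 0.05 was found for 7 of the 11. The share of all tested genes with such a p is not given here, so nothing is read from counts of this kind. Tenm4 had 141, 146, 116 and 148 CPM in parental and 204, 195, 219 and 262 CPM in mutant libraries 1 to 4. All mutant libraries lay above the parental ones, and the edgeR adjusted p was 0.00695 for a log2 fold change of 0.67 ± 0.12 (SE). Its paralog Tenm3 was at 72.3 to 73.3 CPM in the parental and 87.2 to 110.2 CPM in the mutant line. These did not overlap, but the log2 fold change of 0.48 ± 0.13 had an edgeR adjusted p of 0.0760. Tenm2 had a log2 fold change of 0.56 ± 0.53, at 4.70 ± 2.82 CPM in parental libraries.

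UNC5 proteins are netrin receptors that FLRT ectodomains bind. Unc5b was well expressed at 246 ± 21.5 CPM in the parental and 278 ± 39.6 CPM in the mutant line (SD, n = 4), which overlapped. Unc5c had 116 ± 16.3 and 156 ± 23.1 CPM without overlap, and its log2 fold change of 0.42 ± 0.14 (SE) had an edgeR adjusted p of 0.163. Unc5a and Unc5d did not pass the low-count filter. Latrophilins are adhesion receptors that bind FLRT proteins and teneurins. Adgrl1 had 400 ± 21.5 and 336 ± 4.36 CPM, again without overlap, and the edgeR adjusted p for its log2 fold change of -0.25 ± 0.09 was 0.243. Adgrl2 and Adgrl3 overlapped, with log2 fold changes of -0.27 ± 0.13 and 0.29 ± 0.31. Robo1, a Slit receptor, had a log2 fold change of -0.32 ± 0.31.

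Members of both families have been tied to FGF receptors. Fgfr1 averaged 129 ± 12.3 CPM in the parental and 101 ± 8.51 CPM in the mutant line, with no overlap and an edgeR adjusted p of 0.233 for a log2 fold change of -0.34 ± 0.12. Fgfr2 had 12.9, 25.8, 10.9 and 13.3 CPM in parental and 34.1, 24.4, 30.3 and 54.2 CPM in mutant libraries 1 to 4. Parental library 2 reached into the mutant range. Its log2 fold change of 1.18 ± 0.30 had an edgeR adjusted p of 0.0580, and it was called in 5 of 16 alternatives, at adjusted p-values from 7.10e-04 to 0.198.

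On the IgLON side, 0 of 5 relatives and partners were called by edgeR, with the same Fgfr2 among them (2 had an unadjusted p under 0.05, and DESeq2 and limma-voom each called 1, Fgfr2). With 1.42% of all tested genes called by edgeR, 0 of 5 lies near the background. Iglon5 had 10.3 ± 4.82 and 8.45 ± 2.30 CPM (SD, n = 4), and a log2 fold change of -0.29 ± 0.41 (SE). Axl, a receptor kinase known to bind Opcml, had 0.39 ± 0.27. The membrane proteases Adam10 and Adam17, which shed many surface proteins, had 0.33 ± 0.15 and -0.14 ± 0.25.

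**Figure D3:**
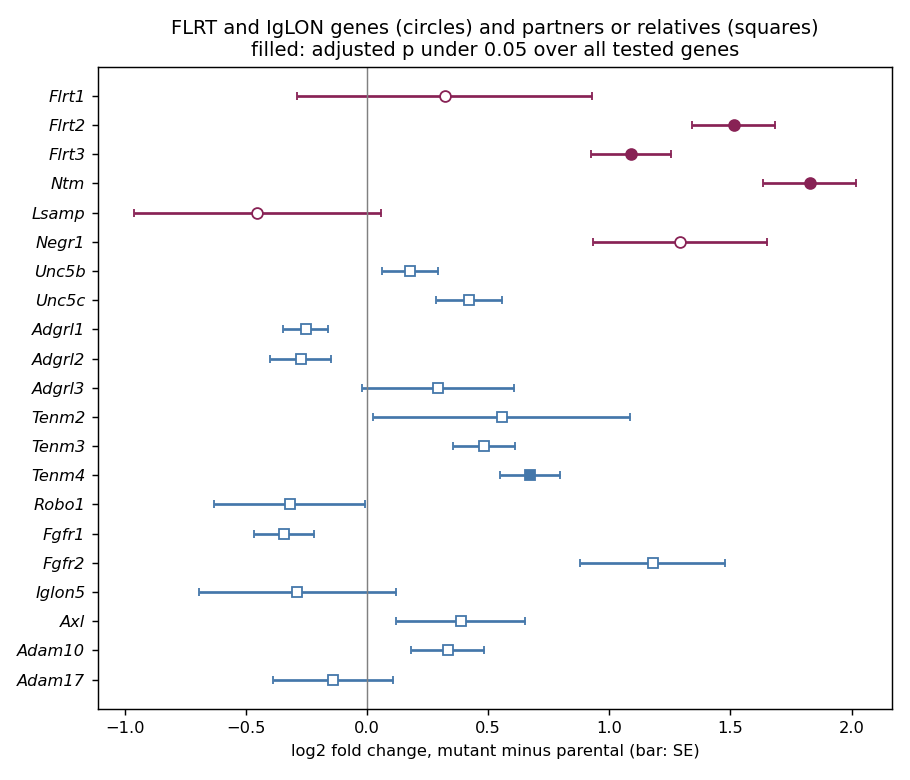
Log2 fold change of mutant minus parental with its SE for the 6 tested FLRT and IgLON genes (circles) and for 15 partners and relatives (squares), filled where the adjusted p over all tested genes is under 0.05. Flrt2, Flrt3, Ntm and Tenm4 are the filled points, all to the right of 0.

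Other adhesion genes were counted in the same fit. Of 20 tested genes among 40 others with leucine-rich repeats, such as the LRRTM, SLITRK and LINGO families, 0 were called by edgeR, 12 had positive estimates and the median log2 fold change was 0.12. Of 28 tested among 43 other immunoglobulin adhesion genes, such as the contactins, nectins and NCAM genes, 0 were called, 14 were positive and the median was 0.01. An unadjusted p under 0.05 was found for 1 and 6 of these genes. DESeq2 called 1 gene in each list, Rtn4rl1 and Chl1, both higher and named after their values were seen, and limma-voom called 0. With 1.42% of all tested genes called, counts of 0 of 20 and 0 of 28 lie near the background. A difference between these families and the FLRT and IgLON genes was not tested.

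Markers of other cell types were read beside these results, because in bulk RNA more cells of a type and more RNA per cell cannot be told apart. IgLON genes are typical of neurons. Of 26 neural markers 16 were tested, Lhx2 was called higher (by edgeR and DESeq2, not by limma-voom), 0 were called lower and the median log2 fold change was -0.60. That is 1 of 16 called, against 1.42% of all tested genes in either direction. An unadjusted p under 0.05 was found for 3 of the 16, and 5 of the 16 estimates were positive. Summed neural markers were 140 to 195 CPM in parental and 163 to 181 CPM in mutant libraries, overlapping. Of the 26, Neurog1 was the gene with 0 counts in all libraries. Among neuronal genes named after their values were seen, Dcx had at most 2 counts in any library. Gap43, which is part of the neural sum, had 46.6 to 68.7 CPM in parental and 59.7 to 88.9 CPM in mutant libraries. Stmn2 had 11.8 to 21.9 and 3.02 to 16.3 CPM, and both genes overlapped. Otx2, a neural marker also named after its values were seen, had 9.90 to 21.0 CPM in parental and 0 to 7.41 CPM in mutant libraries. These did not overlap, but Otx2 was not called by edgeR, DESeq2 or limma-voom. Of 11 neural crest markers 5 were tested and 0 called by edgeR, DESeq2 or limma-voom (0 with an unadjusted p under 0.05). With 1.42% of all tested genes called by edgeR, 0 of 5 lies near the background. Neural crest sums were 127 to 143 and 125 to 147 CPM, and Sox10 had at most 5 counts.

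Of 15 mesenchyme markers tested, 4 were called higher (Col3a1, Twist1, Col1a2 and, named after its values were seen, Postn) and 0 lower, where 0.745% of all tested genes were called higher. The other 11 did not pass with edgeR, and 12 of the 15 estimates were positive. In 6 of the 15 all mutant libraries lay above all parental ones, against 3.49% of all tested genes. Besides the 4 called these were Twist2 and Pdgfrb, and limma-voom also called Prrx1, all named after their values were seen. An unadjusted p under 0.05 was found for 8 of the 15. The summed level of the list was 2486 to 3485 CPM in parental and 3895 to 5265 CPM in mutant libraries, without overlap. Without the 4 called genes, a sum added after the values were seen, it was 1839 to 2477 and 2269 to 3219 CPM, which overlapped. The genes left out were picked as higher in these same data, so nothing is read from this overlap. Twist1, a factor of mesenchymal cells, had 91.4 ± 20.6 and 223 ± 54.8 CPM (SD, n = 4). Of 13 endothelial and blood markers tested, 2 were called higher, the globin genes Hba-x and Hbb-bh1, against 0.745% of all tested genes. An unadjusted p under 0.05 was found for 4 of the 13. The list summed to 546 to 859 CPM in parental and 1110 to 1862 CPM in mutant libraries. Without these globins, again a sum added after the values were seen, it was 433 to 705 and 501 to 1026 CPM, which overlapped. As for the mesenchyme list, nothing is read from that overlap. Endoderm, where Flrt3 is known to act, had Krt18 and Foxa2 called lower among 11 tested (limma-voom called Krt18 and Spink1 but not Foxa2). Over all tested genes 1.42% were called in either direction. An unadjusted p under 0.05 was found for 4 of the 11. Summed endoderm levels were 381 to 716 CPM in parental and 323 to 442 CPM in mutant libraries, which overlapped. Epicardium markers, of interest for Flrt2, had 0 of 7 called by edgeR, DESeq2 or limma-voom (2 with an unadjusted p under 0.05). That count also lies near the background of 1.42% called by edgeR. The epicardium sums of 45.6 to 59.8 and 58.0 to 134 CPM overlapped, mutant library 4 being the highest. Among 15 cardiomyocyte markers 0 were called by any of the 3 tools (8 with an unadjusted p under 0.05) and 0 were positive. With 1.42% of all tested genes called by edgeR, 0 of 15 called lies near the background. The median log2 fold change of these markers was -1.24, against 0.001 over all tested genes. Their sums of 684 to 4001 and 139 to 1089 CPM overlapped. Of 7 tested pluripotency markers 1, Sall4, was called lower and 0 higher, against 1.42% of all tested genes called in either direction. An unadjusted p under 0.05 was found for 2 of the 7. The part of these cell types in the FLRT and IgLON values was not tested.

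The genes most alike in pattern were sought among 9026 genes with a mean of at least 10 CPM, by Pearson's r of log2 CPM over the 8 libraries. Since these libraries share 2 lines and many genes were searched, the values describe these libraries and carry no test. Col5a1, a fibrillar collagen chain, and Itm2a were closest to Flrt2, both at r = 0.99. Col5a1 had 111, 82.0, 80.6 and 72.5 CPM in parental and 200, 138, 169 and 176 CPM in mutant libraries 1 to 4, so that library 1 was highest within each line, as for Flrt2. Car2, a carbonic anhydrase, and Mapre1 were closest to Flrt3 at r = 0.98. Zbed3 (r = 0.99) and Sdc1 (r = 0.98) were closest to Ntm, and in Zbed3 mutant library 4 was the highest and mutant library 2 the lowest of the mutant libraries, as for Ntm. Ece1 (r = 0.96) and Efnb1 (r = 0.95) were closest to Negr1. Pearson's r does not measure the size of a change. Log2 fold changes were 0.98 and 1.35 for Col5a1 and Itm2a, and 0.43 and 0.13 for Car2 and Mapre1. They were 0.96 and 0.47 for Zbed3 and Sdc1, and 0.30 and 0.54 for Ece1 and Efnb1. Each was below that of its member, and of these genes Col5a1, Itm2a and Zbed3 were called by edgeR. For the low genes Flrt1 and Lsamp, Sf3b1 and Hexim1, and Arhgef25 and Aph1a, came first. Without mutant library 4, Col5a1 and Itm2a stayed first and second for Flrt2, Zbed3 first for Ntm and Arhgef25 first for Lsamp. The ranks of the others then fell to 3 and 4 for Car2 and Mapre1, 7 for Sdc1, 7 and 8 for Ece1 and Efnb1, 5 and 10 for Sf3b1 and Hexim1, and 3 for Aph1a.

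**Figure D4:**
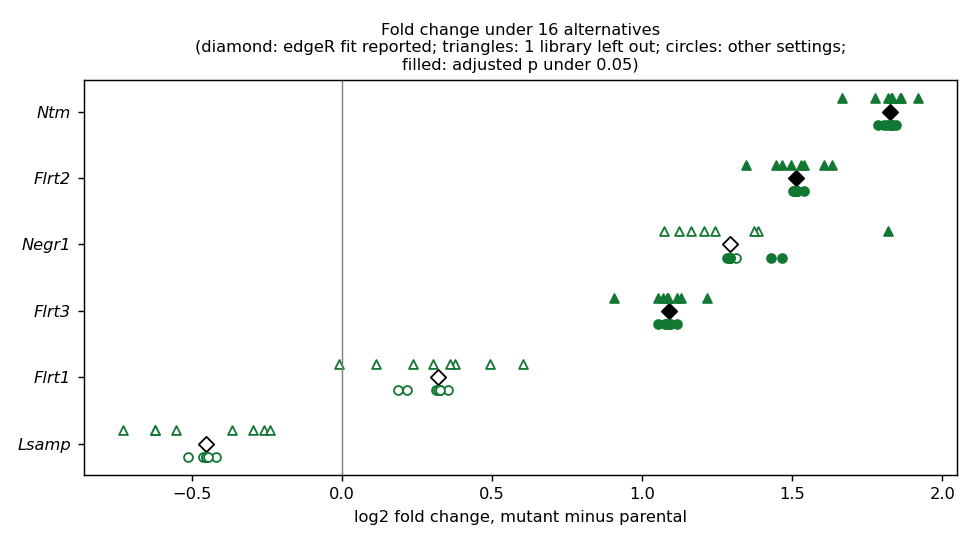
Log2 fold change of the 6 tested members in the reported edgeR fit (diamonds), with each of 8 libraries left out (triangles) and under 8 other settings (circles), filled where the adjusted p is under 0.05. Ntm, Flrt2 and Flrt3 are filled throughout, Negr1 in 5 of its 16 alternatives, and Flrt1 and Lsamp in 0.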

How the data were processed

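QuantSeq 3′ libraries were made from polyA RNA, per the labels' protocols. Per the submitters' processing notes, STAR and featureCounts were used with build mm10; the deposited values are whole-number counts per gene and library, not normalized, and the file name states forward-strand counting. Versions, annotation and duplicate removal are not given in the sources used here. Of 55487 identifiers, 55227 matched GENCODE M21 (GRCm38), version dropped.

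Genes passing filterByExpr (13280, holding 99.5% of counts) were scaled by TMM and tested with the edgeR 4.0.16 quasi-likelihood F test in R 4.3.3, with line as the only term, two-sided, Benjamini-Hochberg adjusted at 0.05; SEs came from the fold change and F. The procedure was tested on simulated data. Alternatives used DESeq2 1.42.0, limma 3.58.1 voom, other scalings and filters, a replicate block and leaving out each library. Log2 CPM used a prior count of 2, and the floor was 3 counts per library.

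Members and lists were chosen with earlier results of these data known. Named genes were the members, tested partners, up to 3 called genes per other list, neighbours and the 2 genes most alike. No 2 libraries of a line agreed within sampling noise (chi-square per degree of freedom 7.20 to 26.0 over 12 pairs). Intervals cover counting error only, since reads without molecular identifiers are not independent molecules. A planned comparison of protein sequences was not run.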

Additional observations from a re-analysis of the deposited data

Results flagged for a closer look

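In 5 of 62 groups of 4 libraries, 1 library lay far from the other 3 by Dixon's criterion at the 95% level, and chance flags about 1 in 20 groups. All 5 are relatives or partners, and 0 are listed FLRT or IgLON genes. Iglon5 was 5.04 CPM in mutant library 1 against 9.15 to 9.99 in the other mutant libraries. Unc5c was 191 CPM in mutant library 4, the library that stood apart, against 142 to 147. Fgfr1 was 147 CPM in parental library 3 against 120 to 124. In parental library 2, Fgfr2 was 25.8 CPM against 10.9 to 13.3, and Adam17 was 30.7 CPM against 18.0 to 19.3.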

How the results depend on the processing

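The calls of Flrt2, Flrt3 and Ntm held under 16 alternatives each, with log2 fold changes of 1.35 to 1.63, 0.90 to 1.22 and 1.67 to 1.92. Tenm4 was called in all 16 as well. With single libraries left out, the Flrt1 estimate ran from -0.0096, without mutant library 1, to 0.60, and the cause was not tested. Between 3 and 4 members were called when single libraries were left out. Of all genes, 439 of 26750 tested were called with no filter beyond 1 count. Of 13280 tested, 405 were called with DESeq2 and 86 at an adjusted p under 0.01. Leaving out single libraries gave 103 to 235, with 103 without parental library 2, 104 without parental library 3 and 116 without mutant library 3. FLRT partners called were 2 with no filter, 3 with DESeq2 and 2 with limma-voom, and 1 to 2 with single libraries left out. IgLON relatives and partners called were 1 under each of no filter, DESeq2 and limma-voom, and 0 to 1 with libraries left out. Other leucine-rich repeat genes and other immunoglobulin genes had 1 called each with DESeq2, and 0 to 1 of the latter with libraries left out. Replicate numbers occur in both lines, but the deviations of same-numbered libraries correlated at only 0.10, 0.02, -0.03 and 0.03, so they were not taken as pairs. A fit with a replicate block called 234 genes, which included 172 of the 188, and gave Negr1 an edgeR adjusted p of 0.0176; 3 of 8 libraries correlated best with their own number. The difference in the Flrt2 share of FLRT counts stayed between 7.06 and 9.55 percentage points, and that in the Ntm share of IgLON counts between 9.62 and 16.5, with single libraries left out. Flrt1, Lsamp and Opcml had the fewest counts of the members. For each of these genes the counting intervals of some mutant libraries did not overlap one another. The part of depth in their spread was not tested.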

Other observations

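Transcripts annotated inside the Flrt2 and Negr1 genes, on the same strand, gave counts of their own. Gm48015 inside Flrt2, a gene model awaiting experimental evidence, had 8.55, 6.64, 3.35 and 6.95 CPM in parental and 11.9, 6.97, 14.3 and 32.7 CPM in mutant libraries 1 to 4. Mutant library 4 was the highest, and mutant library 2 was inside the parental range. Its log2 fold change of 1.36 ± 0.44 (SE) had an edgeR adjusted p of 0.167. Gm42946 inside Negr1 had 3, 4, 0 and 2 counts in parental and 36, 27, 11 and 8 counts in mutant libraries 1 to 4, with every mutant library above every parental one and an edgeR adjusted p of 0.106. Gm43526, also inside Negr1, had 10 counts in parental library 4 and 0 in the other 3 parental libraries, against 28, 10, 11 and 0 in the mutant libraries. Gm43527, inside Negr1 too, had 4, 4, 0 and 1 counts in parental and 19, 9, 33 and 0 in mutant libraries 1 to 4. Gm15578, a pseudogene there, had 0, 0, 1 and 9 and then 21, 0, 2 and 0 counts. Gm43527 and Gm15578 did not pass the low-count filter. Since they share a strand with their host, how counts were divided between host and inner transcript cannot be told apart here. Inside Lsamp, 9 annotated genes had 0 counts in all libraries.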
